A study of Mus musculus with 8 samples.

Results

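The genes described here are 33 mouse genes of glucose uptake, glycolysis and the fate of pyruvate, chosen by symbol from the 49585 gene rows of each library. They are 3 glucose transporters, the enzymes from hexokinase to lactate dehydrogenase, 2 lactate transporters, the pyruvate dehydrogenase subunit Pdha1 with its 4 kinases, and the transcription factor Hif1a. All 33 symbols were found, and all 33 passed the filter of a mean of at least 0.1 FPKM (fragments divided by exon length and by the library's total) that left 23498 genes to be tested. Whole pituitaries of old (18 to 24 months) and young (2 to 3 months) wild-type C57BL/6 mice were sequenced as polyA mRNA, in 4 libraries per age. All mice were kept in a specific pathogen free facility on regular chow, they were perfused to remove blood before the gland was taken, and the sex of the mice is not given in the sources used here. Neither the labels nor the study's text say that each library came from a separate mouse, and each p-value therefore reflects only how far these libraries scatter, which may be in part technical.

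Glycolysis splits glucose into pyruvate in the cytosol, and most of its steps can be carried out by more than 1 isozyme, each encoded by its own gene with its own tissue pattern. Glucose enters through carriers of the GLUT family, is trapped by hexokinases and committed by phosphofructokinase. Pyruvate then goes to lactate or, through pyruvate dehydrogenase, into mitochondria. Hif1a encodes the oxygen-regulated subunit of the factor HIF-1, which binds hypoxia response elements and induces many genes of this pathway in other tissues. Hormone-secreting cells of the pituitary carry out glycolysis like other cells, and a whole gland averages over them and over vessels, glia, axons and immune cells.

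Library totals, worked back from the FPKM, were 16098530 to 19272104 fragments in old pituitaries and 15042321 to 20429604 in young pituitaries. Where no fragment was counted, up to 3 remain possible in that library, a limit that covers counting error only. Over all genes tested, the log2 fold change, old minus young, had a median of 0.15 and not 0, and it was 0.0066 after the libraries were scaled by the median of ratios, so the differences below are also given relative to that shift where it matters. Hormone genes took 9.05 to 11.6% of the fragments in old libraries and 12.0 to 14.1% in young ones. Defining markers of hormone cells were all measured, with Gh (growth hormone) and Lhb (luteinizing hormone beta) lower in old pituitaries. Their adjusted p-values were 0.0076 and 0.044. Among the libraries, old replicate 4 stood apart in transcripts of the posterior lobe and hypothalamus, whose values are given beside the enzyme sums.

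No gene of the 33 differed between ages at an adjusted p under 0.05 in the main test, limma on log2(FPKM + 0.1) without further scaling. In limma, 0 of 33 were higher and 0 lower in old pituitaries, against 1.86% and 0.472% of all genes tested (2.33% in either direction). Over all genes, 436 were higher and 111 lower in old pituitaries, and after median-of-ratios scaling 211 were higher and 220 lower. At an unadjusted p under 0.05, 4 of the 33 genes were higher in old pituitaries (Hk3, Tpi1, Eno2 and Slc16a3), against 18% of all genes, and 2 were lower (Slc2a1 and Slc2a4), against 3.79%. After median-of-ratios scaling, 0 of the 33 genes were called higher and 1 (Slc2a1) lower. Slc2a1 was also called lower under further settings given below, but not when any 1 library was left out. With voom on the recovered fragments, 3 of the 33 genes passed: Slc2a1 and Slc2a4 were lower and Eno2 was higher. Voom also called far more of all genes than limma, 1432 higher and 352 lower of 23225 tested. The median log2 fold change over the 33 genes was 0.14, beside 0.15 over all genes, and 16 of the 33 lay above that all-gene median and 17 below it.

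The intervals around these differences were narrow for most of the genes. For 32 of the 33 genes the 95% interval of the fold change lay within 2-fold in either direction, against 67.6% of all genes, and for 22 it lay within 1.5-fold, against 39.6%. The exception at 2-fold was Slc2a4, the least abundant of the 33. The median standard error was 0.14 on the log2 scale for the 33 genes and 0.18 for all genes. All genes were not matched to the 33 in level, and many of the 33 were abundant. The part of level in these contrasts was not tested.

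**Figure D1:**
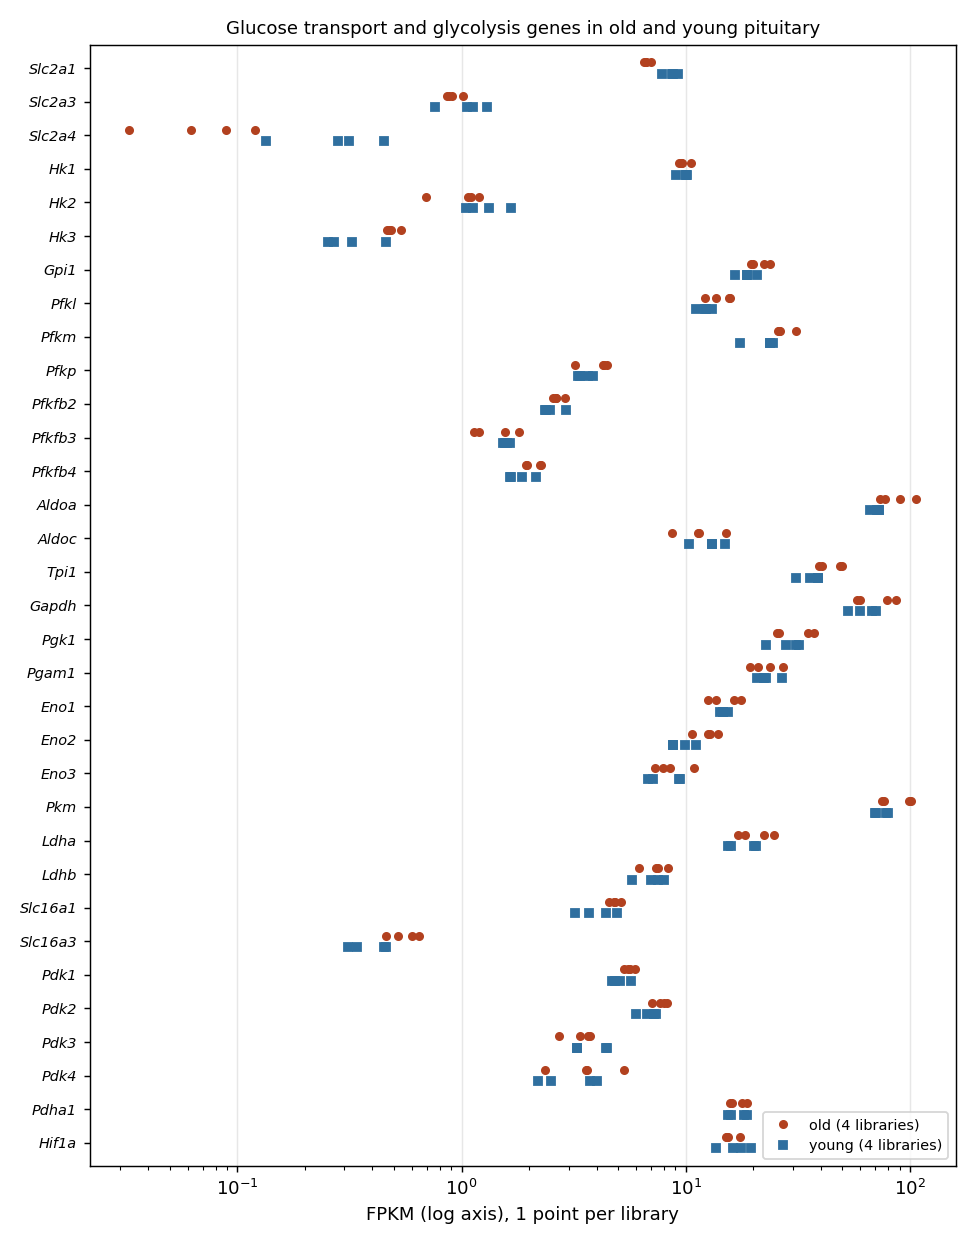
Levels of the 33 genes in FPKM on a log axis, with 1 point per library, 4 old libraries (circles, upper row of each gene) and 4 young libraries (squares, lower row). The genes span from Slc2a4, with 0.0329 to 0.119 FPKM in old libraries and 0.134 to 0.452 FPKM in young ones, to Pkm, with 74.9 to 101 FPKM in old libraries and 70.03 to 79.7 FPKM in young ones.

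**Figure D2:**
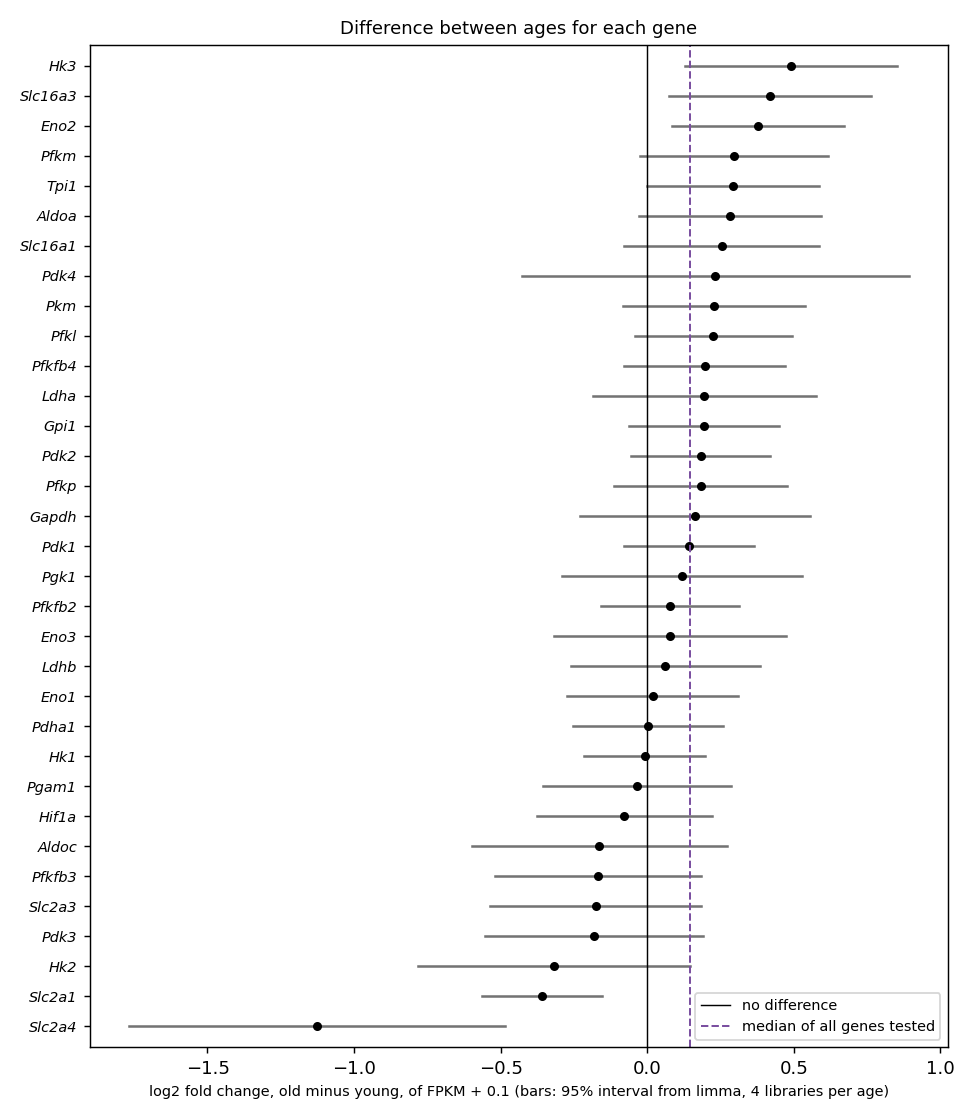
Log2 fold change, old minus young, of FPKM + 0.1 for each of the 33 genes (points) with the 95% interval from limma over 4 libraries per age (bars). The solid line marks no difference and the dashed line the median of all genes tested, 0.15. The points run from 0.49 for Hk3 to -1.13 for Slc2a4.

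The 6 genes whose libraries did not overlap between ages were 4 with all old libraries above all young ones (Hk3, Pfkm, Aldoa and Tpi1) and 2 with all old libraries below (Slc2a1 and Slc2a4). Of all genes tested, 13.4% had all old libraries above and 2.06% had all old libraries below. The 4 that lay above did so only in the FPKM as deposited: after each of 4 other scalings of the libraries, 0 of the 33 genes had all old libraries above, and 4 had all old libraries below, which were Slc2a1, Slc2a4, Hk1 and Pdk3. After those scalings, 5.66 to 6.40% of all genes had all old libraries above and 4.96 to 5.75% had all old libraries below, beside 0% and 12.1% of the 33 genes.

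Slc2a1 encodes GLUT1, the carrier for basal glucose uptake, which is also the glucose carrier of blood vessels at the blood-brain barrier and, in humans, of red blood cells. Its gene (ENSMUSG00000028645) lies on the plus strand at chr4:119108711-119137983 of GRCm38. Its level was 6.64, 6.50, 7.0 and 6.65 FPKM in old pituitaries, against 8.81, 8.65, 7.82 and 9.23 FPKM in young ones. Every old library lay below every young library, and the old libraries were close together, with a mean of 6.70 ± 0.214 FPKM in old and 8.63 ± 0.593 FPKM in young pituitaries (SD, n = 4 each). It was covered by 1677 fragments in the old libraries together and 2139 in the young ones.

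The log2 fold change of Slc2a1 was -0.36 (SE 0.088, 95% interval -0.56 to -0.15), with an unadjusted p of 0.0040 and an adjusted p of 0.078 in limma, which is above the threshold. Relative to the shift of all genes the difference was larger: the log2 fold change was -0.51 after median-of-ratios, upper-quartile or trimmed-mean scaling, with adjusted p-values of 0.040, 0.038 and 0.036. It was -0.36 in voom, with an adjusted p of 0.033. With 1 library left out in turn, the adjusted p of Slc2a1 was 0.12 to 0.17. Summed over 8 markers of endothelial cells, the levels were 73.3 to 101 FPKM in old and 72.0 to 99.8 FPKM in young pituitaries. Most of that sum was Plvap, at 48.4 to 64.6 FPKM in old and 45.2 to 64.2 FPKM in young pituitaries. Of these 8 markers, 0 were called in limma and 1 was lower in old pituitaries at an unadjusted p under 0.05. It was Cldn5, with all old libraries below all young ones (log2 fold change -0.59, unadjusted p = 0.015 in limma), and all others overlapped. Summed over 7 markers of red blood cells, the levels were 15.9 to 124 FPKM in old and 13.0 to 110 FPKM in young pituitaries. In a whole gland, fewer cells of a type and less RNA per cell cannot be told apart.

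Windows of 300 bases around the annotated start sites, 250 before and 50 after, were given by RefSeq (GRCm38.p6) for 31 of the 33 genes. They were searched on both strands for the core of the hypoxia response element, spelled ACGTG or GCGTG. These share their last 4 letters, so a position on a strand holds at most 1 of them. A match was found in a window of 28 of the 31 genes (90.3%), against 46.7% of the 27025 genes in the table. Per window the share was 80.9% of 47 windows of these genes and 43.8% of 32851 windows. The windows of these genes were also richer in G and C, with a median of 61.0% against 52.7% of all windows, and both spellings contain more G and C than A and T. A match describes letters in the window and is no measured site of binding. The first window below belongs to the gene with the smallest standard error among those with non-overlapping libraries, Slc2a1 (chr4:119108495-119108794, plus strand), with its 2 matches in capitals, which begin 61 and 36 bases before the start site. The second belongs to Eno2 (chr6:124769624-124769923, minus strand), which is described further on and had no match in this window. Both are written 5′ to 3′.
Slc2a1: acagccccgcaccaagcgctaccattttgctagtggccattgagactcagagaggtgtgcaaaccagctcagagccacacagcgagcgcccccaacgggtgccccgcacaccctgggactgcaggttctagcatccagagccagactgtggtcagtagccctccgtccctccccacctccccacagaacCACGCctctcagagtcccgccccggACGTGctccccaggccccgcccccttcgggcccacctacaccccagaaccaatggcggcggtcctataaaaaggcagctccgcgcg
Eno2: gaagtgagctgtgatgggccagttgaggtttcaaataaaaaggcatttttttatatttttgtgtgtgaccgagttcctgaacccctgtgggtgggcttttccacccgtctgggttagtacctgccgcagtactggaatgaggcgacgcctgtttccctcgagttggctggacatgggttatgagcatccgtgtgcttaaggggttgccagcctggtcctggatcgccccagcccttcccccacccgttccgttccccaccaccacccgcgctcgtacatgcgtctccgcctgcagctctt

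Slc2a4 encodes GLUT4, the insulin-regulated carrier of muscle and fat cells (chr11:69942539-69948188, minus strand, GRCm38). It was close to the limit of detection in both ages. Its level was 0.0893, 0.0622, 0.119 and 0.0329 FPKM in old pituitaries, against 0.452, 0.134, 0.281 and 0.314 FPKM in young ones. These values rest on 5, 4, 8 and 2 fragments in the old libraries and on 27, 7, 20 and 20 in the young ones. No old library reached the lowest young library, young replicate 2, which stood apart from the other young libraries and near the highest old one. The ratio of the means, old over young, was 0.257.

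The fitted log2 fold change of Slc2a4 was -1.13 (SE 0.28, 95% interval -1.77 to -0.49, adjusted p = 0.077 in limma), and the pseudocount of 0.1 FPKM, which is near these levels, pulls it towards 0. It was -1.88 in voom, with an adjusted p of 0.029, and -1.36 without young replicate 2, with an adjusted p of 0.038. Skeletal muscle markers, 9 in all, summed to 1.24 to 1.78 FPKM in old and 0.889 to 1.99 FPKM in young pituitaries. Of 5 adipocyte markers, Adipoq, Cidec and Lep were at 0 in all libraries, Plin1 was at 0 in all but 1, and Fabp4, which endothelial cells and macrophages also express, made up almost all of the list's 1.39 to 1.77 FPKM in old and 0.777 to 1.41 FPKM in young pituitaries. The part of such cells in the level of Slc2a4 was not tested.

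Slc2a3 encodes GLUT3, the high-affinity carrier of neurons. It averaged 0.913 ± 0.0675 FPKM in old and 1.06 ± 0.223 FPKM in young pituitaries (SD, n = 4 each), with a log2 fold change of -0.18 (95% interval -0.54 to 0.19, adjusted p = 0.54 in limma), and its libraries overlapped. Of the summed FPKM of the 3 carriers, Slc2a1 made up 87.1% in old and 86.5% in young pituitaries, Slc2a3 11.9% in old and 10.6% in young ones, and Slc2a4 0.982% in old and 2.93% in young ones. Slc2a1 was thus the leading of these 3 carriers in both ages. Of other genes of the family, Slc2a13 averaged 7.26 FPKM in old and 8.13 FPKM in young pituitaries, and Slc2a8 3.71 FPKM in old and 2.88 FPKM in young ones. Whether either of these carries glucose into the cells was not measured here.

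Hexokinases phosphorylate glucose as it enters the cell. Hk1, the isozyme of most tissues, averaged 9.75 ± 0.575 FPKM in old and 9.81 ± 0.518 FPKM in young pituitaries (SD, n = 4 each). Its log2 fold change of -0.01 (95% interval -0.22 to 0.20) changed sign when single libraries were left out, and it was -0.16 after median-of-ratios scaling, with an adjusted p of 0.34 in limma. Hk2, the inducible and insulin-responsive isozyme, averaged 1.02 ± 0.22 FPKM in old and 1.29 ± 0.278 FPKM in young pituitaries, with a log2 fold change of -0.32 (95% interval -0.78 to 0.15, adjusted p = 0.39). The young libraries reached 1.67 FPKM in young replicate 1, and the old ones went down to 0.697 FPKM in old replicate 1.

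Hk3 is the hexokinase of white blood cells (chr13:55005985-55021385, minus strand, GRCm38). Its level was 0.472, 0.485, 0.536 and 0.466 FPKM in old pituitaries, against 0.269, 0.325, 0.253 and 0.460 FPKM in young ones. Young replicate 4 lay just under the lowest old library, and the other young libraries were well below, over 129 fragments in old and 85 in young libraries. Hk3 had a log2 fold change of 0.49 (SE 0.16, 95% interval 0.13 to 0.85), the largest of the 33, with an unadjusted p of 0.015 and an adjusted p of 0.13 in limma. It was 0.37 to 0.38 after the 4 other scalings, none of which left the libraries without overlap.

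Markers of macrophages were higher in old pituitaries beside Hk3. Their 12 levels summed to 86.7 to 114 FPKM in old and 38.5 to 67.8 FPKM in young pituitaries, without overlap. Of the 12, 3 passed the test (Lyz2, C1qb and Ptprc), and 11 had an unadjusted p under 0.05. Library by library, the sums were 114, 105, 106 and 86.7 FPKM in old replicates 1 to 4. In young replicates 1 to 4 they were 46.4, 38.5, 54.7 and 67.8 FPKM. Old replicate 4 was the lowest old library and young replicate 4 the highest young library for both these sums and Hk3. Most of the remaining ranks did not agree. The highest old library was old replicate 3 for Hk3 and old replicate 1 for the sums. The lowest young library was young replicate 3 for Hk3 and young replicate 2 for the sums. Neutrophil markers summed to 0.556 to 5.44 FPKM in old and 0.179 to 3.22 FPKM in young pituitaries, and 0 of the 5 tested were called. The part of immune cells in the level of Hk3 was not tested. Of the summed FPKM of Hk1, Hk2 and Hk3, Hk3 took 4.28 to 4.39% in old and 2.23 to 3.85% in young pituitaries.

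**Figure D3:**
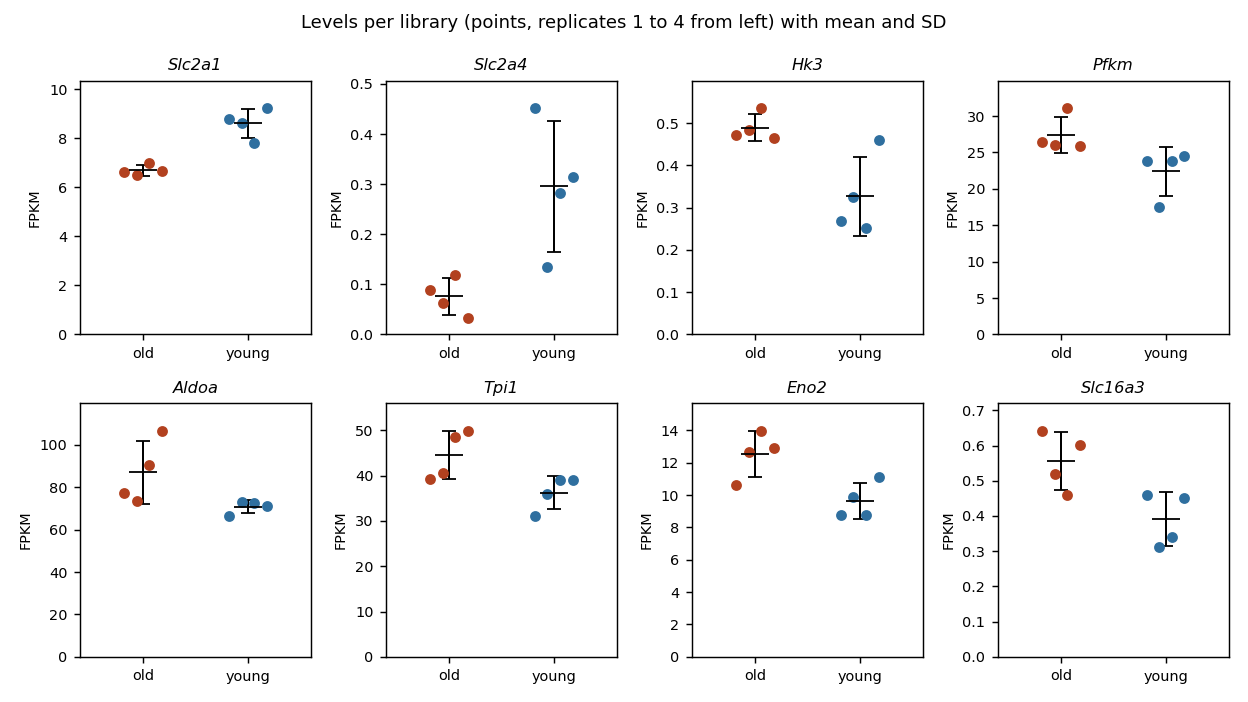
Levels in FPKM of 8 genes in 4 old libraries (left of each panel) and 4 young libraries (right), with 1 point per library, the mean (horizontal bar) and the SD (error bar). Slc2a1 and Slc2a4 lie lower in all old libraries, Hk3, Pfkm, Aldoa and Tpi1 lie higher, and Eno2 and Slc16a3 overlap between ages. None of the 8 passed an adjusted p of 0.05 in the main limma test.

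Phosphofructokinase catalyses the committed step, and its 3 genes encode subunits named for liver, muscle and platelet. Pfkm, the muscle type (chr15:98092589-98132451, plus strand, GRCm38), was the most abundant of the 3 per length. Its level was 26.5, 26.1, 31.1 and 25.9 FPKM in old pituitaries, against 23.8, 17.4, 23.8 and 24.6 FPKM in young ones. The gap between the lowest old and the highest young library was small, with old replicate 3 and young replicate 2 far out on either side. Pfkm had a log2 fold change of 0.30 (95% interval -0.02 to 0.62, adjusted p = 0.26 in limma) and 0.15 after median-of-ratios scaling. Of its exon bases, 10.8% are shared with Gm26513 and Senp1, and how many of its fragments fall there was not measured.

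Pfkl, the liver type, averaged 14.3 ± 1.71 FPKM in old and 12.2 ± 0.795 FPKM in young pituitaries, with a log2 fold change of 0.23 (adjusted p = 0.30). Pfkp, the platelet type, averaged 4.06 ± 0.567 FPKM in old and 3.55 ± 0.248 FPKM in young pituitaries, with a log2 fold change of 0.18 (adjusted p = 0.43). The makeup of the enzyme's transcripts was much alike, with Pfkm at 59.9% in old and 58.5% in young pituitaries, Pfkl at 31.2% in old and 32.1% in young ones, and Pfkp at 8.88% in old and 9.33% in young ones. The difference in the share of Pfkp was -0.447 percentage points (p = 0.49, exact permutation test).

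The bifunctional enzymes of the Pfkfb family make and remove fructose 2,6-bisphosphate, the strongest activator of phosphofructokinase. Pfkfb2, the heart type, averaged 2.68 FPKM in old and 2.54 FPKM in young pituitaries. Its log2 fold change of 0.08 turned to -0.07 after median-of-ratios scaling, and 19.5% of its exon bases are shared with Yod1 and Gm29427. Pfkfb3, the inducible type with strong kinase activity, was spread more widely in old pituitaries, at 1.42 ± 0.315 FPKM against 1.58 ± 0.0474 FPKM in young ones (log2 fold change -0.17, adjusted p = 0.55). Pfkfb4, a type first known from testis, averaged 2.10 FPKM in old and 1.83 FPKM in young pituitaries (log2 fold change 0.20, adjusted p = 0.37).

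Pkm, Aldoa, Gapdh, Tpi1 and Pgk1 had the highest levels of the 33 genes. The mean of Pkm over all libraries was above that of 98.9% of the genes tested, and that of Gapdh above 98.7%. Pkm encodes the pyruvate kinase of most tissues, which makes pyruvate and ATP (chr9:59656368-59679375, plus strand, GRCm38). Its level was 76.9, 74.9, 101 and 99.5 FPKM in old pituitaries, against 70.7, 70.03, 77.9 and 79.7 FPKM in young ones. Old replicates 3 and 4 were above every young library, and old replicates 1 and 2 were among them, with a log2 fold change of 0.23 (95% interval -0.08 to 0.54, adjusted p = 0.36 in limma). The FPKM of Pkm sums its splice forms, M1 and M2, and 15.3% of its exon bases are shared with Gm49759.

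Aldoa encodes the aldolase of muscle and most other tissues, which cleaves fructose 1,6-bisphosphate. Its level was 77.1, 73.5, 90.4 and 107 FPKM in old pituitaries, against 66.3, 73.0, 72.5 and 71.2 FPKM in young ones. Old replicate 2 lay just above the highest young library, and old replicates 3 and 4 lay far above. For Aldoa the log2 fold change was 0.28 (95% interval -0.03 to 0.59, adjusted p = 0.27 in limma) and 0.13 after median-of-ratios scaling. The symbol stands for 2 genes of the annotation, so no coordinates are given, and reads may also be shared with the copies Aldoart1 and Aldoart2.

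Tpi1 encodes triosephosphate isomerase, which interconverts the products of aldolase (chr6:124810586-124814296, minus strand, GRCm38). Its level was 39.4, 40.5, 48.6 and 49.8 FPKM in old pituitaries, against 31.1, 36.0, 39.0 and 38.9 FPKM in young ones. The old libraries began just above the highest young ones. Between ages, Tpi1 had a log2 fold change of 0.29 (SE 0.13, 95% interval 0.00 to 0.59), with an unadjusted p of 0.049 and an adjusted p of 0.23 in limma, and it was 0.14 after median-of-ratios scaling.

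Gapdh encodes the dehydrogenase that makes the NADH of glycolysis and is widely used as a reference transcript (chr6:125161715-125166467, minus strand, GRCm38). Its level was 60.1, 58.0, 78.9 and 87.0 FPKM in old pituitaries, against 53.0, 70.4, 67.7 and 60.1 FPKM in young ones. The ages overlapped, with the lowest library young replicate 1 and the highest old replicate 4. The log2 fold change was 0.16 (95% interval -0.23 to 0.56, adjusted p = 0.60 in limma), and it was 0.01 to 0.03 after the 4 other scalings. Pgk1 encodes the first ATP-forming enzyme and lies on chrX:106187100-106203699 (plus strand, GRCm38). Its level was 25.6, 26.0, 35.1 and 37.5 FPKM in old pituitaries, against 22.7, 31.0, 32.0 and 28.1 FPKM in young ones. Old replicates 3 and 4 were again the highest, and the log2 fold change of 0.12 (adjusted p = 0.73) turned to -0.03 after median-of-ratios scaling.

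The remaining enzymes of the shared route were close between ages. Gpi1, the isomerase before phosphofructokinase, averaged 21.4 ± 1.95 FPKM in old and 18.7 ± 1.73 FPKM in young pituitaries (log2 fold change 0.19, adjusted p = 0.34). Pgam1, a phosphoglycerate mutase, averaged 22.8 ± 3.44 FPKM in old and 23.2 ± 2.57 FPKM in young pituitaries, and its log2 fold change of -0.04 changed sign when single libraries were left out. Eno1, the enolase of most tissues, averaged 15.1 ± 2.36 FPKM in old and 14.7 ± 0.485 FPKM in young pituitaries, and its log2 fold change of 0.02 turned to -0.13 after median-of-ratios scaling. Processed copies of Pgam1, Ldha, Gapdh, Pgk1 and Eno1 are listed at 0 to 2.54 FPKM, so the values of these parent genes are uncertain by the reads they share.

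Many of the abundant enzymes had their highest levels in the same old libraries. For 9 of them (Gpi1, Aldoa, Tpi1, Gapdh, Pgk1, Pgam1, Eno1, Pkm and Ldha), a grouping chosen after the values were seen, the summed FPKM was 348, 346, 440 and 472 in old pituitaries, against 316, 347, 370 and 357 in young ones. Pfkm is not in this grouping, though its mean of 24.9 FPKM over all libraries was above those of Gpi1, Pgam1, Eno1 and Ldha. Its highest old value was in old replicate 3, at 31.1 FPKM, and its lowest in old replicate 4, at 25.9 FPKM. Old replicates 3 and 4 had sums above every young library, and old replicates 1 and 2 lay within the range of the young libraries. In FPKM as deposited, 8 and 9 of the 9 enzymes were above all young libraries in old replicates 3 and 4, and 2 each in old replicates 1 and 2. This count was not made over all genes or after scaling, and the sums were not scaled either. Over all genes tested, the median log2 ratio to the young mean was 0.045, 0.12, 0.18 and 0.14 in old replicates 1 to 4. Of the 33 genes, 18 had their highest old value in old replicate 4 and 10 in old replicate 3, against 28.0% and 32.4% of all genes. The sums of endothelial markers were 73.3, 83.4, 97.3 and 101 FPKM in old replicates 1 to 4, and the ribosomal RNA repeat took 38.1, 34.6, 33.8 and 35.5% of their fragments. Old replicate 4, with the highest enzyme sum, also stood apart in transcripts of the posterior lobe and hypothalamus, of which a pair is named here after the values were seen: Oxt (oxytocin) was at 4.68 FPKM there and at 0 to 0.231 FPKM in the other libraries, and Scn7a, a sodium channel of posterior lobe glia, was at 3.00 FPKM there and at 0.0212 to 0.107 FPKM in the others. Without old replicate 4 the enzyme sum averaged 378 ± 54.0 FPKM in old pituitaries (SD, n = 3), against 347 ± 23.2 FPKM in young ones (SD, n = 4). These means are of FPKM as deposited and still hold the shift of all genes. Whether the sum stays higher in old pituitaries after scaling, with or without old replicate 4, was not tested. Leaving a library out cannot make groups overlap that did not, so the 6 genes without overlap are no check on old replicate 4. Without old replicate 4, Pdk2 also had all old libraries above all young ones. The part of endothelial cells, ribosomal RNA or posterior lobe tissue in the enzyme levels was not tested.

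**Figure D4:**
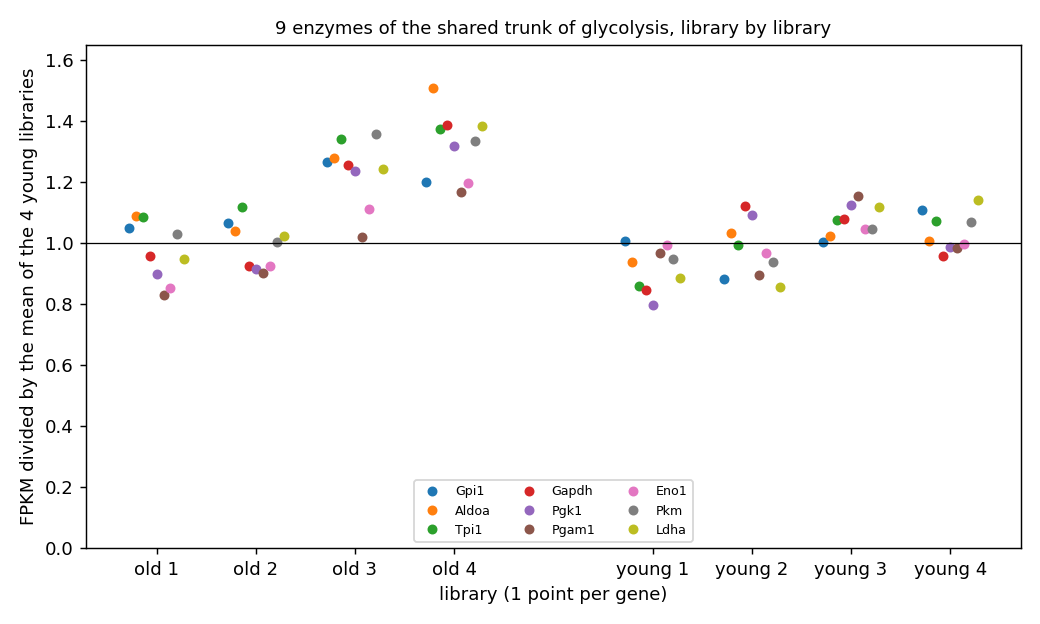
FPKM of 9 glycolytic enzymes in each library, old replicates on the left and young replicates on the right, each divided by the gene's mean over the 4 young libraries (horizontal line at 1), with 1 point per gene. In old replicate 4 all 9 points lie above every young value of the same gene, and in old replicates 1 and 2 only 2 do. The FPKM are as deposited and still hold the shift of all genes.

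Isozyme shares compare 2 or more transcripts within a library, so they do not depend on how the libraries are scaled. For 8 such shares an exact permutation test, two-sided, was made, in which 4 against 4 libraries cannot give a p under 0.029. Adjusted over the 8, a lone share at that floor cannot go below 0.23, and 5 shares would have to reach the floor to pass 0.05, so that none passed says little. Of the 8, 1 did not overlap between ages. The share of Hk3 in Hk1, Hk2 and Hk3, given above, did not overlap either and was not among the shares tested. Aldoc encodes the aldolase of brain, found in astrocytes and neurons. Its share of Aldoa + Aldoc was 10.1, 13.4, 11.2 and 12.4% in old pituitaries, against 13.5, 15.2, 15.4 and 17.3% in young ones. All old libraries were below all young ones, with a mean of 11.8 ± 1.45% in old and 15.4 ± 1.53% in young pituitaries (SD, n = 4 each; difference -3.59 percentage points, p = 0.029, adjusted p = 0.23, exact permutation test).

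The level of Aldoc itself overlapped between ages. It was 8.66, 11.4, 11.4 and 15.1 FPKM in old pituitaries, against 10.4, 13.1, 13.2 and 14.9 FPKM in young ones, with old replicate 4 the highest of all (log2 fold change -0.16, 95% interval -0.60 to 0.27, adjusted p = 0.64 in limma). Markers of posterior lobe glia and astrocytes summed to 7.34 to 15.7 FPKM in old and 7.43 to 11.4 FPKM in young pituitaries, with old replicate 4 again the highest, at Scn7a and Col25a1 above all. They did not move one way: without overlap between ages, Aqp4 was lower in old pituitaries (log2 fold change -0.47, unadjusted p = 0.0071 in limma) and Col25a1 higher (log2 fold change 1.41, unadjusted p = 0.0027), and neither passed the adjusted threshold. The highest glial sum among young libraries was in young replicate 3 and the highest Aldoc in young replicate 4. Their part in the level of Aldoc was not tested.

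Eno2 encodes the neuronal and neuroendocrine enolase, and Slc16a3 a lactate exporter. Both fall outside the rule for genes given library by library and were chosen after their values were seen. Eno2 (chr6:124760053-124769673, minus strand, GRCm38) was at 10.6, 12.6, 14.0 and 12.9 FPKM in old pituitaries, against 8.74, 9.90, 8.74 and 11.1 FPKM in young ones. Only old replicate 1 and young replicate 4 crossed. Eno2 had a log2 fold change of 0.38 (SE 0.13, 95% interval 0.08 to 0.67), with an unadjusted p of 0.018 and an adjusted p of 0.15 in limma. It was 0.23 after median-of-ratios scaling, with an adjusted p of 0.31, and 0.38 in voom, with an adjusted p of 0.044.

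The share of Eno2 in Eno1 + Eno2 was 45.6 ± 2.45% in old and 39.4 ± 3.16% in young pituitaries (SD, n = 4 each; difference 6.13 percentage points, p = 0.057, adjusted p = 0.23, exact permutation test). Eno3, the muscle enolase, averaged 8.65 ± 1.56 FPKM in old and 8.19 ± 1.41 FPKM in young pituitaries, and its log2 fold change of 0.08 turned to -0.07 after median-of-ratios scaling. Markers of neurons and axons summed to 46.2 to 57.1 FPKM in old and 33.2 to 40.5 FPKM in young pituitaries. Most of that sum was Snap25, Syt1 and Tubb3. Snap25 was at 15.2 to 19.8 FPKM in old and 13.7 to 18.1 FPKM in young pituitaries. Syt1 was at 10.8 to 14.2 FPKM in old and 9.07 to 11.3 FPKM in young ones. Tubb3 was at 11.6 to 21.3 FPKM in old and 4.14 to 6.23 FPKM in young ones. Among the 9 markers, Tubb3 was higher in old pituitaries (log2 fold change 1.64, adjusted p = 0.018 in limma) and Nefl and Nefm were lower (log2 fold changes -1.44 and -1.09, adjusted p-values 0.048 and 0.025), so these markers did not move one way. Their part in the level of Eno2 was not tested.

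**Figure D5:**
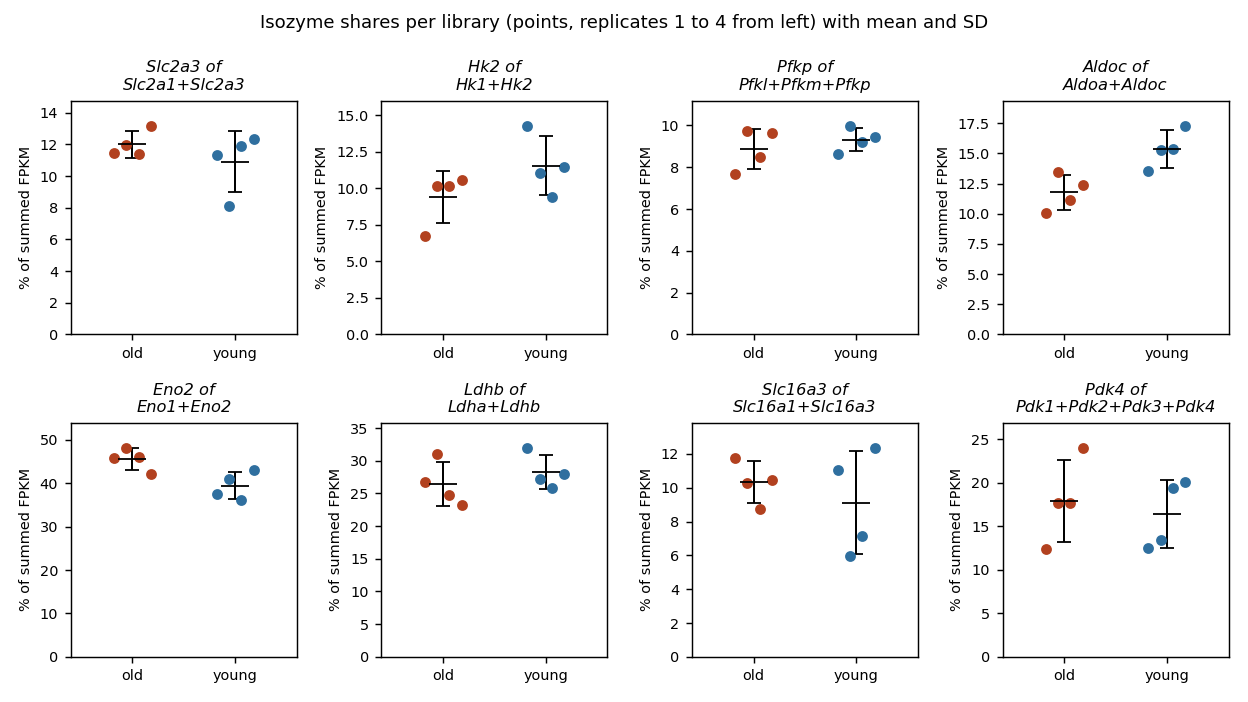
Share of 1 isozyme in the summed FPKM of its family, in percent, for 8 families in 4 old libraries (left of each panel) and 4 young libraries (right), with 1 point per library, the mean (horizontal bar) and the SD (error bar). Only the share of Aldoc does not overlap, at 10.1 to 13.4% in old and 13.5 to 17.3% in young libraries, and none of the 8 shares has an adjusted p under 0.05.

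Lactate dehydrogenase converts pyruvate to lactate and back. Ldha, the subunit that favours lactate, averaged 20.7 ± 3.59 FPKM in old and 18.0 ± 2.72 FPKM in young pituitaries (log2 fold change 0.19, 95% interval -0.19 to 0.58, adjusted p = 0.53 in limma). Ldhb, the heart subunit, averaged 7.36 ± 0.864 FPKM in old and 7.06 ± 0.963 FPKM in young pituitaries, and its log2 fold change of 0.06 turned to -0.09 after median-of-ratios scaling. The share of Ldhb was 26.5 ± 3.37% in old and 28.2 ± 2.64% in young pituitaries (SD, n = 4 each; p = 0.43, exact permutation test).

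Lactate crosses the membrane through carriers of the MCT family. Slc16a1 (MCT1) averaged 4.82 ± 0.25 FPKM in old and 4.07 ± 0.765 FPKM in young pituitaries (log2 fold change 0.25, adjusted p = 0.34 in limma). Slc16a3 (MCT4) was at 0.642, 0.519, 0.459 and 0.602 FPKM in old pituitaries, against 0.459, 0.313, 0.341 and 0.452 FPKM in young ones. Old replicate 3 and young replicate 1 met at the same level, and all other old libraries were above all young ones. The log2 fold change of Slc16a3 was 0.42 (SE 0.15, 95% interval 0.08 to 0.77), with an unadjusted p of 0.023 and an adjusted p of 0.16 in limma, over 209 fragments in old and 148 in young libraries. It was 0.30 after median-of-ratios scaling. Macrophage markers, given beside Hk3, were also higher in old pituitaries, and their part in the level of Slc16a3 was not tested.

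Pyruvate dehydrogenase opens the way of pyruvate into the citric acid cycle, and its kinases Pdk1 to Pdk4 switch it off. Pdha1, the catalytic subunit (chrX:160122209-160138413, minus strand, GRCm38), had almost the same mean in both ages, 17.1 ± 1.41 FPKM in old and 17.1 ± 1.67 FPKM in young pituitaries. Its log2 fold change of 0.00 (95% interval -0.25 to 0.26) turned to -0.15 after median-of-ratios scaling, and 16.2% of its exon bases are shared with Map3k15 on the opposite strand. Pdk2, the most abundant kinase, averaged 7.75 ± 0.50 FPKM in old and 6.83 ± 0.614 FPKM in young pituitaries (log2 fold change 0.18, adjusted p = 0.34 in limma). Pdk1, a target of HIF-1, averaged 5.61 ± 0.256 FPKM in old and 5.08 ± 0.446 FPKM in young pituitaries, with a log2 fold change of 0.14 that came to -0.0047 after median-of-ratios scaling.

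Pdk3 averaged 3.37 ± 0.465 FPKM in old and 3.85 ± 0.669 FPKM in young pituitaries (log2 fold change -0.18, adjusted p = 0.54). After median-of-ratios scaling its log2 fold change was -0.33, with an adjusted p of 0.22 and no overlap between ages. Pdk4, which is induced by fasting and glucocorticoids in other tissues, had the largest standard error of the 33 genes. It was at 2.35, 3.59, 3.62 and 5.29 FPKM in old pituitaries, against 2.20, 2.52, 3.74 and 4.02 FPKM in young ones. The ages overlapped through most of their range. That standard error of 0.28 on the log2 scale leaves a 95% interval of -0.43 to 0.89, so neither direction can be read from it. The share of Pdk4 among the kinases was 17.9 ± 4.74% in old and 16.4 ± 3.92% in young pituitaries (SD, n = 4 each; p = 0.66, exact permutation test).

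Hif1a (chr12:73901375-73947530, plus strand, GRCm38) was at 15.3, 15.4, 17.4 and 15.1 FPKM in old pituitaries, against 13.7, 17.7, 19.6 and 16.2 FPKM in young ones. The old libraries lay within the range of the young ones. The log2 fold change was -0.08 (95% interval -0.38 to 0.22, adjusted p = 0.76 in limma) and -0.23 after median-of-ratios scaling, with an adjusted p of 0.37. HIF-1 is regulated mainly through the stability of this protein, which these libraries do not measure.

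Other genes of the pathway were counted in 8 further lists, and 0 genes of any list were called in the main limma test. Among 9 regulators of the HIF pathway, 0 had an unadjusted p under 0.05. Among 12 tested HIF targets outside glycolysis, 4 had an unadjusted p under 0.05, all higher in old pituitaries, against 18% of all genes: Ndrg1, Kdm3a, Ankrd37 and Vegfa. The log2 fold changes of Bhlhe40, Ddit4, P4ha2, Higd1a and Mxi1 were negative, at -0.29, -0.21, -0.18, -0.17 and -0.06. None of these had an unadjusted p under 0.05. The median log2 fold change over the 12 was 0.06, beside 0.15 over all genes. Among 20 tested other isoforms of carriers and enzymes it was 5 higher (Slc2a8, Slc2a10, Gapdhs, Ldhd and Bsg) and 0 lower, with a median of 0.16. Among 7 tested genes of gluconeogenesis and the glycerol phosphate shuttle it was 1 higher (Pck2) and 1 lower (Gpd1), and among 13 genes of glucose and insulin sensing 1 higher (Prkaa2) and 2 lower (Mlxipl and Ppargc1a).

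The lists for pyruvate entry (10 genes), the pentose phosphate pathway (8) and glycogen metabolism (12 tested) held 1 (Mpc1), 1 (Tkt) and 0 genes higher at an unadjusted p under 0.05, and 0 lower. The median log2 fold changes were 0.09, 0.23 and 0.06, beside 0.15 for all genes. The values of Ndrg1, Kdm3a, Pck2 and Bsg, which follow, were chosen after they were seen. Their lack of overlap is in FPKM as deposited, in which 13.4% of all genes tested had all old libraries above. Whether the ages overlap after scaling was not counted for these genes. Ndrg1, a hypoxia-induced gene, averaged 5.81 ± 0.649 FPKM in old and 3.76 ± 0.486 FPKM in young pituitaries, with all old libraries above all young ones (log2 fold change 0.62, adjusted p = 0.056 in limma and 0.0048 in voom). Kdm3a, a histone demethylase induced by HIF-1, averaged 3.05 ± 0.174 FPKM in old and 2.34 ± 0.179 FPKM in young pituitaries, also without overlap (log2 fold change 0.37, adjusted p = 0.086 in limma and 0.031 in voom).

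Pck2, the mitochondrial phosphoenolpyruvate carboxykinase, averaged 13.2 ± 2.05 FPKM in old and 8.71 ± 1.02 FPKM in young pituitaries without overlap (log2 fold change 0.58, adjusted p = 0.077 in limma and 0.0091 in voom). Bsg encodes basigin, the chaperone that brings the lactate carriers Slc16a1 and Slc16a3 to the membrane. It averaged 193 ± 15.4 FPKM in old and 155 ± 11.4 FPKM in young pituitaries without overlap (log2 fold change 0.32, adjusted p = 0.13 in limma and 0.035 in voom). After median-of-ratios scaling, the log2 fold changes were 0.47 for Ndrg1, 0.22 for Kdm3a, 0.43 for Pck2 and 0.17 for Bsg, with adjusted p-values of 0.12, 0.35, 0.20 and 0.35, and none of the 4 genes was called under any of the 4 other scalings.

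The spread between libraries of 1 age is given as a description, with no test. The median SD on the log2 scale was 0.18 in old and 0.17 in young pituitaries over the 33 genes, and 0.22 in old and 0.25 in young pituitaries over all genes. Of the 33 genes, 16 (48.5%) had the larger SD in old pituitaries, against 43.4% of all genes. Among the 9 abundant enzymes of the summed FPKM above, a grouping chosen after the values were seen, 8 had the larger SD in old pituitaries. Pfkm, which is abundant but not in that grouping, had the smaller SD in old pituitaries, 0.13 against 0.23 in young ones.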

How the data were processed

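Polyadenylated RNA of whole pituitary was sequenced in 4 old and 4 young libraries. Per the labels and the study's methods, the authors aligned paired-end reads to GRCm38 with STAR (version 2.6.1a), counted them per Ensembl gene with featureCounts and computed FPKM with edgeR (version 3.28.1). The deposited values are FPKM, with no other unit used here. Which Ensembl release and strand setting they used is not given in the sources used here. Because FPKM depend on the library total, a change in a few very abundant transcripts, such as hormone mRNA or ribosomal RNA, shifts all other genes.

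Genes averaging 0.1 FPKM or more were tested with limma (version 3.58.1, R 4.3.3) on log2(FPKM + 0.1), with all 8 libraries, no covariate and Benjamini-Hochberg adjustment over all genes tested. Fold changes on this scale understate the change of low genes. Calls have an adjusted p under 0.05. Isozyme shares were compared by exact permutation tests, two-sided, adjusted over 8 shares (Python 3.11.15 with scipy 1.17.1, numpy 2.4.6, pandas 2.3.3; figures with matplotlib 3.10.9).

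Fragments were recovered with exon lengths of GENCODE M21, and in each library 89.3 to 90.3% of the low values came out whole within 0.01 fragments. For other genes a length was fitted, the smallest at which the fragments of the 8 libraries came out whole. Together these genes held 99.97% of each total. Fragments are printed only for annotated lengths, and fitted ones entered voom and scaling. The fit was tested on simulated data.

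The 33 genes and the lists of pathway genes and markers were chosen with earlier results of these data known. Values per library were to be given for genes that passed the test, genes without overlap between ages, the 5 highest genes, families whose share did not overlap, and Hif1a. Alternatives were other scalings, pseudocounts, filters, a mean-variance trend, voom, a block for the replicate number, and fits that each omitted 1 library. No libraries of 1 age agreed within sampling noise. The authors' single-cell data were not analysed here. A gene of 1 pathway list is not reported here.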

Additional observations from a re-analysis of the deposited data

Results flagged for a closer look

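Of 82 groups of 4 libraries (levels of the 33 genes and the 8 isozyme shares, by age), 5 held a library far from the other 3 relative to the range of the group, and chance alone flags about 1 in 20 groups. Pfkm stood at 31.1 FPKM in old replicate 3, above the other old libraries, and at 17.4 FPKM in young replicate 2, below the other young ones. Pfkp stood at 3.22 FPKM in old replicate 1, below the other old libraries. Hif1a stood at 17.4 FPKM in old replicate 3, above the other old libraries. The share of Hk2 in Hk1 + Hk2 was 6.75% in old replicate 1, below the other old libraries. The cause of these values was not tested.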

How the results depend on the processing

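Over all genes, the calls higher and lower in old pituitaries, 436 and 111, came to 211 and 220 after median-of-ratios scaling, 213 and 217 after upper-quartile scaling, 201 and 203 after trimmed-mean scaling, and 212 and 189 with library sizes without hormone and ribosomal RNA repeat genes. They were 689 and 138 with a pseudocount of 1, 263 and 80 without a filter, 796 and 123 with a minimum mean of 1 FPKM, 705 and 139 with a mean-variance trend, and 1432 and 352 in voom. With 1 library left out in turn they ranged over 64 to 327 higher and 21 to 163 lower. With the replicate number as a block they were 4 and 0 (limma). Same-numbered libraries correlated at only -0.037 to 0.037 in their deviations from the group means, so the numbers were not taken to pair the libraries. With that block, 0 of the 33 genes were called.

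Of the 33 genes, 1 was called lower (Slc2a1) after each of the 4 scalings, with a pseudocount of 1, with a minimum of 1 FPKM and with the mean-variance trend, 2 were called lower and 1 higher in voom, and 0 to 1 were called lower with 1 library left out (1 being Slc2a4 without young replicate 2). The median log2 fold change over the 33 genes was 0.0589 to 0.161 with 1 library left out, and it was -0.0047, -0.0025 and -0.0025 after median-of-ratios, upper-quartile and trimmed-mean scaling. After median-of-ratios, upper-quartile and trimmed-mean scaling and with the reduced library sizes, in that order, the log2 fold changes that turned negative were -0.067, -0.065, -0.065 and -0.051 for Pfkfb2, -0.034, -0.031, -0.031 and -0.017 for Pgk1, -0.13, -0.13, -0.13 and -0.12 for Eno1, -0.072, -0.069, -0.069 and -0.055 for Eno3, -0.088, -0.086, -0.086 and -0.072 for Ldhb, and -0.15, -0.15, -0.15 and -0.13 for Pdha1. Those of Pdk1 were -0.0047, -0.0025 and -0.0025 after the first 3. With 1 library left out the sign also turned for Hk1 (-0.049 to 0.012), Pgam1 (-0.12 to 0.040), Eno1 (-0.062 to 0.10), Eno3 (-0.036 to 0.15), Ldhb (-0.032 to 0.14), Pdha1 (-0.047 to 0.048) and Hif1a (-0.17 to 0.00047), and for the difference in the share of Pdk4 (-0.459 to 3.40 percentage points). Among the other pathway lists, 1 isoform (Bsg) was called in voom, 1, 2, 1 and 2 HIF targets with a pseudocount of 1, a minimum of 1 FPKM, the trend and voom, and 1 gluconeogenesis gene (Pck2) in each of these. The cause of these differences was not tested.

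Depth limits Slc2a4, with 19 fragments in old and 74 in young libraries, and Hk3 and Slc16a3 less so. The number of libraries limits all p-values. Strand was not stated, so genes that overlap others, and parents of processed copies, carry uncertain counts.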
